A study of Danio rerio with 30 samples.

Results

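The comparison described here sets the spleens of unstimulated adult zebrafish that had been incubated at 32 °C as embryos and larvae against those of unstimulated fish incubated at 28 °C. Its members are the 10 control libraries of these 2 incubation temperatures, 5 at each (28 °C replicates 1, 2, 3, 5 and 7, and 32 °C replicates 2, 3, 6, 8 and 10), of 30 libraries in the series. Of the genes measured, 17841 of the 31901 genes in the deposited table had enough counts to be tested. All fish were of the AB strain, a laboratory line with no engineered allele named in the labels, and were sampled as adults at 100 days after fertilisation, and were kept under 12 h of light and 12 h of darkness. The labels give 28 °C for the keeping of adults and 24, 28 or 32 °C, each within 0.5 °C, for embryos and larvae. The groups thus differed in the earlier temperature. Polyadenylated RNA of the spleen was sequenced with a kit that keeps the strand. The remaining 20 libraries were controls incubated at 24 °C and fish of all 3 temperatures given lipopolysaccharide (LPS), a Gram-negative cell wall component that triggers innate immunity. They entered the fit to share one estimate of the spread. What the control fish received, their sex and the hour of sampling are not given in the labels. Nothing says whether the libraries of a group came from separate tanks or clutches. Each p-value covers the spread among libraries within the groups, estimated over all 30 libraries, and nothing wider.

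The spleen of bony fish filters blood, breaks down old red cells and holds macrophages, B cells and T cells, so that its RNA mixes erythroid transcripts with those of phagocytes and lymphocytes. MHC class II molecules display peptides taken up from outside the cell to helper T cells and are carried mainly by B cells, macrophages and dendritic cells. Neutrophils are recruited by chemokines such as the product of cxcl8a and kill microbes in part with superoxide from the phagocyte NADPH oxidase. The question posed by the design is whether the temperature during early development left a difference in the resting spleen of the adult.

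Total counts ranged from 15586276 to 23401031 over the 10 libraries. Erythroid transcripts made up 94583 to 181841 CPM (counts per 1000000 counts) at 28 °C and 97713 to 215132 at 32 °C. The macrophage receptor gene marco was at 1198 to 3414 CPM of total counts in all 10, so the libraries carried the transcripts of a blood-rich organ with macrophages. Pairs of libraries within a group differed by far more than sampling noise, the lowest chi-square per degree of freedom being 63.5 over 20 pairs. A pair of 32 °C libraries stood apart. The first was 32 °C replicate 8, where 74 liver markers together took up 11033 CPM against 838 to 1289.9 in the other 4 libraries of its group and 827 to 1386 at 28 °C. The second was 32 °C replicate 2, which had the lowest total and yet 28134 genes with a count, while the remaining 9 libraries had 20059 to 21255. Called genes described in detail and list medians are therefore also given without these libraries. Acinar pancreas markers summed to 501 to 39125 CPM at 28 °C (median 2689) and 979.6 to 27560.0 at 32 °C (median 18127).

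Of 17841 genes, 113 (0.633%) differed between the temperatures at an adjusted p under 0.05 in edgeR's quasi-likelihood test, 75 (0.42%) with more RNA at 32 °C and 38 (0.213%) with less. At an unadjusted p under 0.05 there were 2575 in either direction. The genes that rose at 32 °C included cd74a, cd74b, mhc2daa and ciita of the MHC class II pathway, cd79a and ighm of B cells and the 3 C1q chains. Those that fell included cxcl8a, cxcr1, LECT2, NCF4 and 4 genes of the vacuolar proton pump. They were a small part of their gene lists, as the counts given with each list show, and the list of the proton pump was chosen after the values were seen. Of the called genes, 40 differed by more than 4-fold, 50 by 2- to 4-fold and 23 by less than 2-fold. The values of the 5 libraries at 32 °C lay wholly above or wholly below those at 28 °C for 73 of the 113, 47 higher and 26 lower. Over all genes tested this held for 495 (2.77%), of which 290 lay higher (1.63%) and 205 lower (1.15%); the test that called the 113 used the same values, so nothing is read from this count. The median log2 fold change over all genes tested was 0.03 after TMM scaling, which itself centres the libraries. At an unadjusted p under 0.05, 1457 of all genes tested were higher and 1118 lower.

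The number of calls changed widely with the tool and with the libraries in the fit, and the causes of this were not tested. In a fit of only the 10 libraries 0 genes passed the edgeR threshold, with 2114 genes at an unadjusted p under 0.05. A fit of the 15 controls called 2. DESeq2 on all 30 libraries called 625, among them all 113. Leaving out 32 °C replicate 8 gave 51 called genes, 39 of them among the 113. Leaving out 32 °C replicate 2 gave 39, of which 37 were shared, and leaving out both gave 2, apoeb and si:ch211-283g2.5. The count fell to 15 without 28 °C replicate 2, to 4 without replicate 3, to 18 without replicate 5, to 15 without replicate 7 and to 17 without 32 °C replicate 3. It rose to 506 (209 higher, 297 lower) without 32 °C replicate 6. Every one of the 113 kept its direction in each fit that left out 1 library. These genes were called from the same libraries, so a kept direction was likely and nothing is read from it. In the fit without both 32 °C replicates 2 and 8 their median absolute log2 fold change was 1.33 against 1.55 with all libraries. The genes called in all 10 single leave-outs numbered 4: cd74a, apoeb, cxcr1 and si:ch211-283g2.5.

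**Figure D1:**
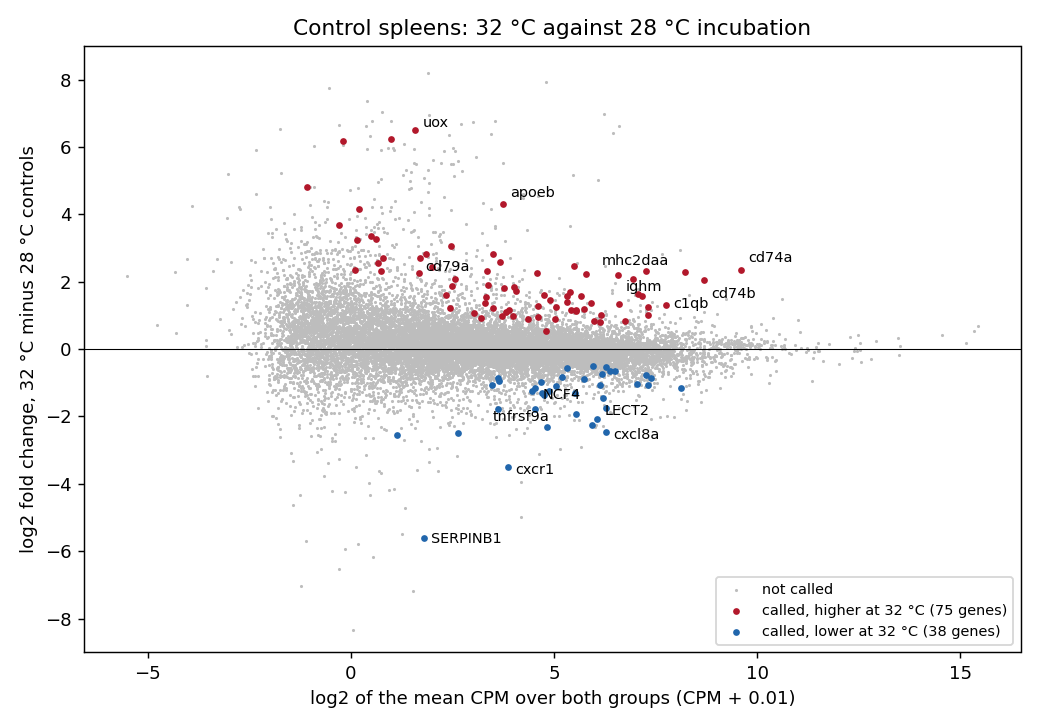
Log2 fold change (32 °C minus 28 °C controls, y axis) against the log2 of the mean CPM over both groups (x axis) for the 17841 genes tested; each point is a gene. The 75 genes called higher at 32 °C are red and the 38 called lower are blue, with cd74a, cd74b and mhc2daa among the most abundant red points and SERPINB1 and cxcr1 the lowest blue ones.

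Antigen presentation gave the most abundant of the genes that rose. The invariant chain, which chaperones MHC class II molecules to the endosome and blocks their peptide groove on the way, is encoded in zebrafish by cd74a (ENSDARG00000009087) and cd74b (ENSDARG00000036628). In the 28 °C libraries cd74a was at 316, 362, 164, 216 and 218 CPM. At 32 °C it was at 1163, 1245, 506, 2788 and 866 CPM. Every 32 °C value lay above every 28 °C value, and replicate 8 was the highest. The means were 255 ± 80.9 and 1314 ± 874 CPM (SD, n = 5 each). The level was 5.14-fold higher at 32 °C (log2 fold change 2.36, SE 0.38, edgeR adjusted p = 0.00613). The second copy, cd74b, was at 198, 243, 117, 118 and 126 CPM against 728, 669.7, 264, 1188 and 479, again without overlap (log2 fold change 2.05, SE 0.35, edgeR adjusted p = 0.0114). Its call was lost without 28 °C replicate 3 (adjusted p = 0.0736).

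The MHC class II alpha chain gene mhc2daa (ENSDARG00000031745) was at 169.6, 152, 51.8, 91.7 and 41.0 CPM at 28 °C and at 654, 505, 167, 759.7 and 394 CPM at 32 °C. The groups overlapped through 32 °C replicate 6, the lowest of its group (log2 fold change 2.29, SE 0.42, edgeR adjusted p = 0.0162). Transcription of class II genes depends on the transactivator CIITA, and ciita (ENSDARG00000090851) averaged 13.2 ± 2.83 CPM at 28 °C and 40.5 ± 22.5 at 32 °C (log2 fold change 1.62, SE 0.33, edgeR adjusted p = 0.0254). Its 5 values at 32 °C, 34.3, 57.9, 17.2, 69.8 and 23.41 CPM, lay above the 28 °C values, which reached 17.02, although replicate 6 did so by a small margin. The lysosomal thiol reductase gene ifi30a (ENSDARG00000056378), whose product opens disulphide bonds of antigens before class II loading in mammals, was at 76.2, 64.8, 79.4, 62.8 and 44.8 CPM against 149, 258, 139, 353 and 114 and did not overlap (log2 fold change 1.63, SE 0.30, edgeR adjusted p = 0.0162). The plot of antigen presentation, B cell and C1q genes shows these values by library.

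**Figure D2:**
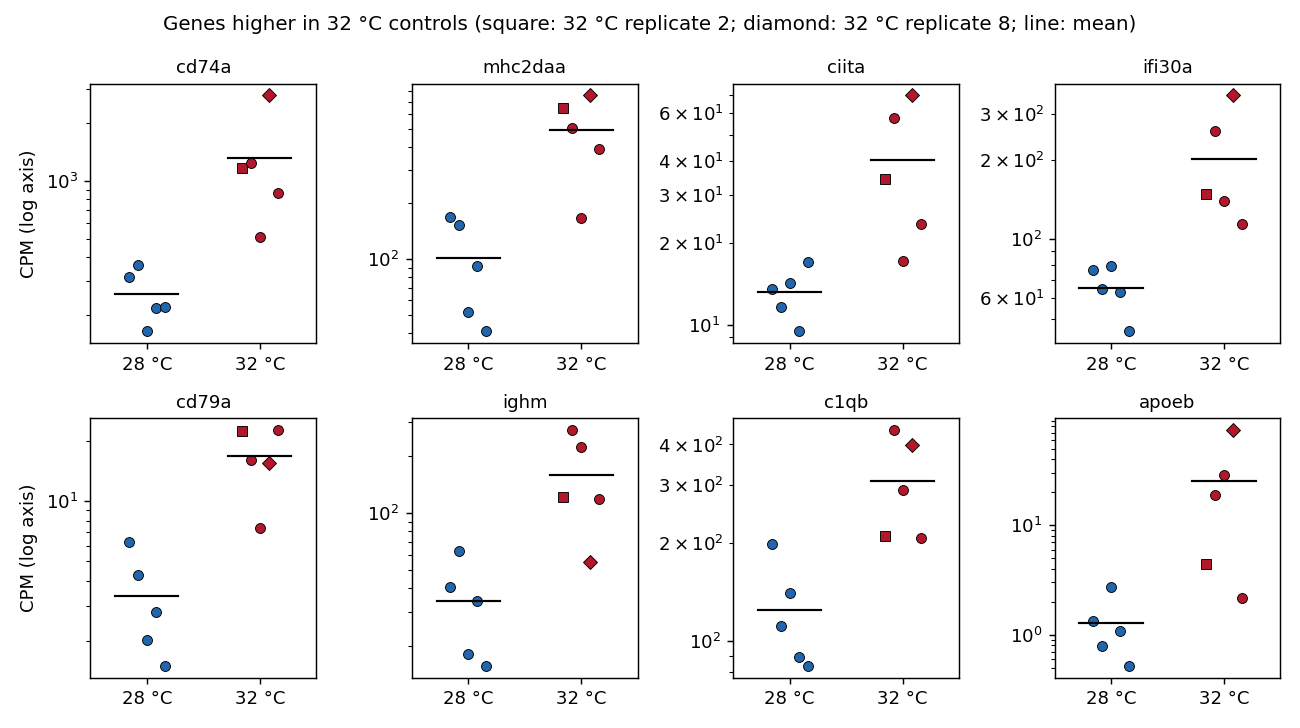
CPM (log axis) of cd74a, mhc2daa, ciita, ifi30a, cd79a, ighm, c1qb and apoeb in the 5 control libraries incubated at 28 °C (blue) and the 5 at 32 °C (red); each point is a library, the line is the group mean, the square is 32 °C replicate 2 and the diamond 32 °C replicate 8. The 32 °C values lie above all 28 °C values for cd74a, ciita, ifi30a, cd79a and c1qb, while mhc2daa, ighm and apoeb overlap, and replicate 8 is the highest 32 °C point for cd74a, mhc2daa, ciita, ifi30a and apoeb.

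The list of MHC and antigen presentation genes did not move as a whole. Of its 39 tested members edgeR called 4 higher (cd74a, cd74b, mhc2daa and ciita) and 0 lower, beside 75 and 38 of all 17841 genes. DESeq2 called 4 of the list higher and 1 lower. Below 0 lay 22 of the 39, with a median log2 fold change of -0.17 (-0.05 without 32 °C replicates 2 and 8). Members of the class I pathway, which loads peptides from the cytosol, did not pass the test: b2m, the class I light chain, averaged 727 ± 42.0 CPM at 28 °C and 931 ± 194 at 32 °C, and the peptide transporter gene tap2a 45.1 ± 32.9 against 22.1 ± 18.6. The further class II gene mhc2dab ranged too widely to pass (63.1 ± 69.4 CPM at 28 °C against 487 ± 379 at 32 °C, edgeR adjusted p = 0.283). MHC genes vary between fish and have near-identical copies, so counts of mhc2daa and mhc2dab may be split between them. Without 32 °C replicate 8 the log2 fold changes were 1.89 for cd74a, 1.74 for cd74b, 2.09 for mhc2daa and 1.33 for ciita, and the call of ciita was lost (adjusted p = 0.0761). Without replicate 2 all 4 calls held, and without both libraries none did, at log2 fold changes of 1.77, 1.55, 1.81 and 1.31 (adjusted p = 0.0754 to 0.176). The call of mhc2daa was also lost without 28 °C replicates 3, 5 or 7 (adjusted p up to 0.0743). The call of ifi30a was lost without 28 °C replicates 3 or 7 (up to 0.0716) and without both 32 °C replicates 2 and 8 (log2 fold change 1.38, adjusted p = 0.082). The call of ciita was lost without 28 °C replicates 2, 3, 5 or 7 or 32 °C replicates 3 or 8 (up to 0.084). In bulk RNA, more cells of a type and more RNA per cell cannot be told apart, here or in the comparisons that follow.

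Some B cell genes rose at 32 °C, 2 of the 26 B cell and plasma cell markers tested, beside 75 (0.42%) of all 17841 genes. The signalling chain of the B cell receptor, cd79a (ENSDARG00000037473), was at 6.25, 4.29, 2.03, 2.78 and 1.4998 CPM at 28 °C and 22.5, 16.2, 7.35, 15.6 and 22.7 CPM at 32 °C, with no overlap and the lowest 32 °C value in replicate 6 (log2 fold change 2.31, SE 0.43, edgeR adjusted p = 0.0168). The immunoglobulin M heavy chain gene ighm (ENSDARG00000096355) was at 40.5, 63.2, 18.1, 34.4 and 15.6 CPM against 121, 273, 222, 55.0 and 118. Replicate 8, which was highest for cd74a, was the lowest 32 °C library here and fell within the 28 °C range (log2 fold change 2.199, SE 0.46, edgeR adjusted p = 0.0284). The light chain gene igl3c3 rose from 4.32 ± 2.597 to 16.3 ± 6.92 CPM (log2 fold change 1.91, SE 0.46, edgeR adjusted p = 0.0488). The further light chain gene igl3v5 had means of 3.47 ± 2.05 and 15.4 ± 8.79 and did not pass (edgeR adjusted p = 0.0514). Immunoglobulin segments are multigene families, and reads may be split among their copies. PRKCB (ENSDARG00000022254), a protein kinase C that acts downstream of the B cell receptor in mammals, was at 37.8, 28.7, 21.3, 31.7 and 26.8 CPM against 60.3, 69.1, 59.6, 60.9 and 72.2 and did not overlap (log2 fold change 1.14, SE 0.22, edgeR adjusted p = 0.0176).

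Of 26 tested B cell and plasma cell markers 20 lay above 0 (9509 of 17841 over all genes tested), with a median log2 fold change of 0.95. Of the markers 2 were called higher (cd79a and ighm) and 0 lower by edgeR, against 6 and 0 by DESeq2. The summed level of the list overlapped between the groups, at 712 to 1229 CPM at 28 °C and 869 to 1266 at 32 °C. The gene blnk, an adaptor of the receptor, averaged 92.2 ± 11.04 CPM at 28 °C and 61.3 ± 10.7 at 32 °C. The receptor's kinase gene BTK was at 48.7 ± 6.20 and 45.7 ± 6.23, and neither passed the test. The B lineage factor PAX5 was at 1.23 ± 1.33 and 2.81 ± 1.65 CPM (edgeR adjusted p = 0.4). The median was 1.05 without 32 °C replicate 8, 0.64 without replicate 2 and 0.71 without both. The log2 fold changes without both were 2.18 for cd79a and 2.57 for ighm, past the threshold for neither (adjusted p = 0.082 and 0.0708), although each call held without either library alone. The cd79a call was lost without 28 °C replicates 3, 5 or 7 (adjusted p up to 0.0743). The call of ighm was lost without 28 °C replicates 3, 5 or 7 or 32 °C replicate 3 (up to 0.115). The call of PRKCB was lost without 28 °C replicates 2, 3, 5 or 7 or 32 °C replicate 3 (up to 0.0913) and without both 32 °C replicates 2 and 8 (log2 fold change 1.19, adjusted p = 0.0786). The call of igl3c3 was lost without 28 °C replicates 2, 3, 5 or 7 or 32 °C replicates 2, 3 or 8 (up to 0.161) and without both 32 °C replicates 2 and 8 (1.65, 0.274). Of 47 T cell and NK cell markers, 39 lay above 0, with a median of 0.39 (0.29 without both libraries). Of them 0 were called by edgeR (7 higher and 1 lower at an unadjusted p under 0.05). DESeq2 called 1 higher, as did limma voom, which was run with quality weights for the libraries. The helper T cell coreceptor gene cd4-1 had the smallest p, at 6.14, 2.297, 2.203, 2.89 and 6.06 CPM against 8.38, 12.6, 8.63, 9.36 and 11.53 (edgeR adjusted p = 0.0582).

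The 3 chains of C1q, which binds antibody complexes and starts the classical complement pathway and which tissue macrophages make in mammals, rose together. For c1qb (ENSDARG00000044612) the libraries held 197, 111, 139.6, 88.9 and 83.6 CPM at 28 °C and 209, 442, 290.5, 399 and 207 CPM at 32 °C (log2 fold change 1.32, SE 0.25, edgeR adjusted p = 0.0176). For c1qa (ENSDARG00000044613) they held 121, 78.1, 74.96, 42.3 and 40.4 against 173, 301, 163, 281 and 158 (log2 fold change 1.59, SE 0.33, edgeR adjusted p = 0.0278). For c1qc (ENSDARG00000095627) they held 138, 108, 100.1, 66.5 and 52.9 against 179, 302, 177, 278 and 179.5 (log2 fold change 1.26, SE 0.25, edgeR adjusted p = 0.0176). None of the 3 overlapped between the groups, although 28 °C replicate 1 came within a few CPM of the lowest 32 °C libraries in c1qb. The calls of c1qb and c1qc were lost without 28 °C replicates 2, 3, 5 or 7 or 32 °C replicate 3 (adjusted p up to 0.0853), and that of c1qa also without 32 °C replicate 8 (0.0607). Without both 32 °C replicates 2 and 8 the log2 fold changes were 1.53, 1.33 and 1.23 for c1qa, c1qb and c1qc, none past the threshold (adjusted p = 0.0754 to 0.109).

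Beyond C1q the median of the complement list changed with 32 °C replicate 8 and, less, with replicate 2. Of 34 tested members 29 lay above 0 and the median was 1.29. By edgeR 3 were called higher (the C1q chains) and 0 lower, beside 75 (0.42%) and 38 (0.213%) of all 17841 genes. DESeq2 called 11 and 0. Without 32 °C replicate 8 the median was 0.42, without replicate 2 it was 0.998, and without replicates 2 and 8 it was 0.01. The terminal component c8a, made by the liver, was at 0.0782, 0.0377, 0, 0.0567 and 0 CPM at 28 °C and 0.951, 0.305, 0.285, 11.2 and 0.117 at 32 °C, so a single library held nearly all of it.

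Among macrophage genes, apoeb (ENSDARG00000040295), which encodes an apolipoprotein E that macrophages and microglia of zebrafish express, showed a large difference: 1.33, 0.791, 2.72, 1.08 and 0.519 CPM at 28 °C against 4.46, 18.99, 28.6, 73.8 and 2.17 CPM at 32 °C (log2 fold change 4.30, SE 0.69, edgeR adjusted p = 0.00613). The groups overlapped through 32 °C replicate 10, and replicate 8 was the highest. The call held without replicate 8 (log2 fold change 3.38, adjusted p = 0.023), without replicate 2 (4.57, 0.0017) and without both (3.68, 0.0162). It was lost with limma voom, in the fit of only the 10 libraries and in that of the 15 controls. The membrane-spanning gene ms4a17a.10 (ENSDARG00000095695) averaged 19.99 ± 6.58 CPM against 60.05 ± 27.4 (log2 fold change 1.59, SE 0.30, edgeR adjusted p = 0.0176). The gene mafbb, a Maf factor whose mammalian counterpart drives macrophage differentiation, was at 32.5 ± 15.2 against 74.2 ± 24.8 (log2 fold change 1.19, SE 0.28, edgeR adjusted p = 0.0473). The ms4a17a.10 call was lost without 28 °C replicates 2, 3, 5 or 7 or 32 °C replicate 3 (up to 0.0764). The call of mafbb was lost without 28 °C replicates 2, 3, 5 or 7 or 32 °C replicates 2, 3, 6 or 8 (up to 0.152). Without both libraries 2 and 8 the adjusted p was 0.11 for ms4a17a.10 and 0.158 for mafbb. Of 42 macrophage and monocyte markers, edgeR called 5 higher and 0 lower, beside 75 (0.42%) and 38 (0.213%) of all 17841 genes. DESeq2 called 5 and 2. At an unadjusted p under 0.05, 10 of the 42 were higher and 4 lower, beside 1457 and 1118 of all genes tested. Of the 5 called by edgeR 3 were the C1q chains that the complement list also holds. The median was 0.10, -0.02 without replicate 8 and 0.09 without both libraries. The summed level of that list overlapped between the groups, at 7624 to 14279.9 CPM at 28 °C and 5555 to 12936 at 32 °C.

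Several genes of neutrophils and of inflammation fell at 32 °C, among them 2 of 32 neutrophil markers and 1 of 71 cytokines and chemokines. Over all 17841 genes tested 38 (0.213%) were called lower. The chemokine gene cxcl8a (ENSDARG00000104795), the counterpart of human interleukin 8 and an attractant of neutrophils, was at 35.9, 235, 183, 96.8 and 107 CPM at 28 °C and 21.3, 17.7, 22.3, 33.5 and 25.3 CPM at 32 °C. The groups did not overlap, and 28 °C replicate 1 was close to 32 °C replicate 8 (log2 fold change -2.45, SE 0.52, edgeR adjusted p = 0.0287). A receptor for such chemokines, cxcr1 (ENSDARG00000052088), was at 7.58, 68.6, 22.7, 8.62 and 26.5 CPM against 3.98, 1.37, 2.09, 1.44 and 2.98, with no overlap and a mean 11.3-fold lower at 32 °C (log2 fold change -3.50, SE 0.62, edgeR adjusted p = 0.0146). LECT2 (ENSDARG00000033227), named in mammals for attracting leukocytes, was at 95.2, 103, 90.9, 74.4 and 177 CPM against 19.7, 22.4, 38.4, 12.4 and 35.6 (log2 fold change -2.07, SE 0.50, edgeR adjusted p = 0.0488). The costimulatory receptor gene tnfrsf9a (ENSDARG00000060498) was at 33.5, 129.5, 66.4, 37.7 and 103 CPM against 11.2, 12.03, 25.8, 20.5 and 28.1 (log2 fold change -1.92, SE 0.42, edgeR adjusted p = 0.031). Neither LECT2 nor tnfrsf9a overlapped between the groups.

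SERPINB1 (ENSDARG00000070396), whose mammalian product inhibits neutrophil serine proteases, had the largest negative log2 fold change among named genes. Its values were 2.31, 2.15, 7.30, 15.7 and 6.58 CPM at 28 °C against 0.535, 0, 0.0949, 0 and 0.0585 at 32 °C, where replicates 3 and 8 had no count (log2 fold change -5.60, SE 1.32, edgeR adjusted p = 0.0473). The adhesion gene ALCAM (ENSDARG00000026531) was at 66.5, 189, 115, 62.2 and 107 CPM against 36.2, 37.2, 73.8, 33.8 and 17.6 and overlapped through 32 °C replicate 6 (log2 fold change -1.44, SE 0.31, edgeR adjusted p = 0.0287). The semaphorin gene sema4ab (ENSDARG00000062352) was at 35.0, 92.7, 80.8, 59.5 and 59.5 CPM against a narrow 26.6, 28.1, 18.9, 29.6 and 28.6 (log2 fold change -1.31, SE 0.25, edgeR adjusted p = 0.0168). Lower values were also found for f11r.1, a junctional adhesion molecule (47.5 ± 26.2 against 9.63 ± 8.39 CPM, log2 fold change -2.30), and malt1, a paracaspase of NF-kB signalling (15.8 ± 3.61 against 8.79 ± 1.83, -0.84), both past the threshold (edgeR adjusted p = 0.0475 and 0.0406).

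**Figure D3:**
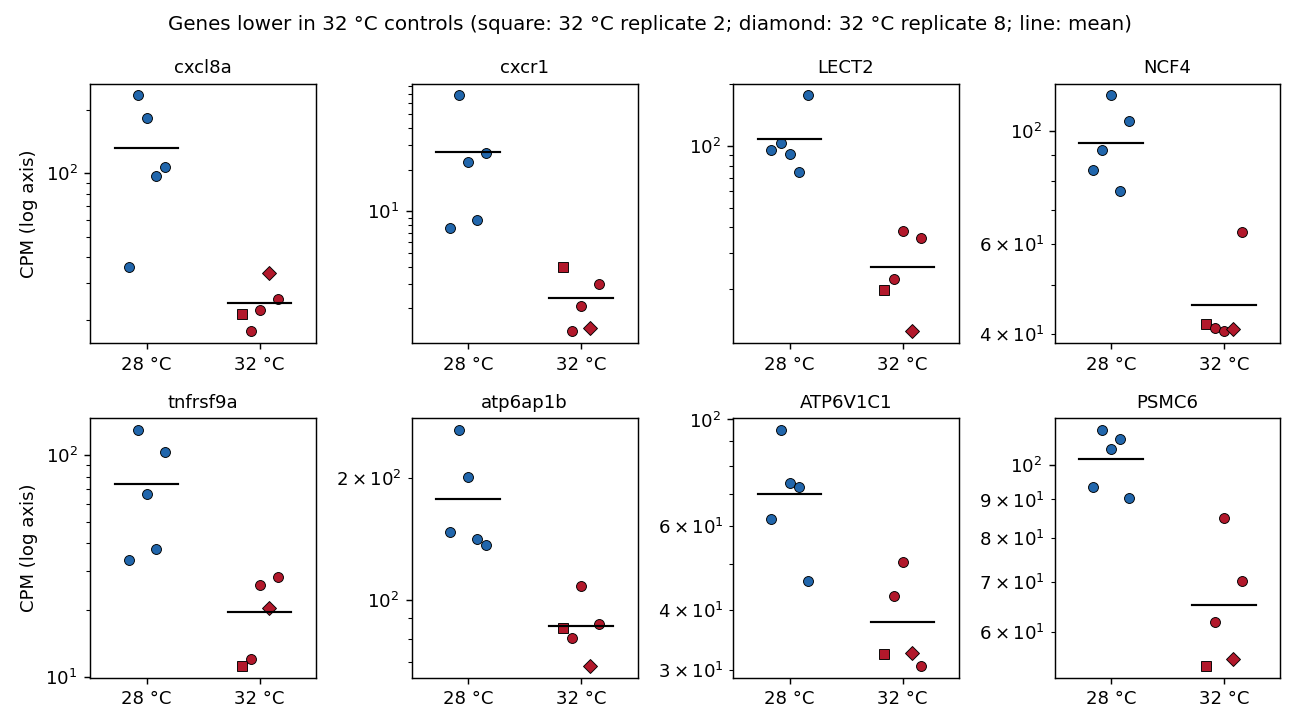
CPM (log axis) of cxcl8a, cxcr1, LECT2, NCF4, tnfrsf9a, atp6ap1b, ATP6V1C1 and PSMC6 in the 5 control libraries incubated at 28 °C (blue) and the 5 at 32 °C (red); each point is a library, the line is the group mean, the square is 32 °C replicate 2 and the diamond 32 °C replicate 8. The 32 °C values lie below all 28 °C values in every panel except ATP6V1C1.

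The neutrophil markers as a list were below 0 in 27 of 32 tested members, with a median log2 fold change of -0.70, against 8332 of 17841 genes and 0.03 over all genes tested. Of them 2 were called lower (cxcr1 and NCF4) and 0 higher by edgeR, against 8 and 0 by DESeq2. Their summed level was 3482 to 5110.4 CPM in the 28 °C libraries and 2238 to 3263 in the 32 °C libraries, which did not overlap. Markers below the threshold included CSF3R, the receptor of the neutrophil growth factor G-CSF (54.9 ± 19.9 against 16.4 ± 13.3 CPM, edgeR adjusted p = 0.117), illr4, a lectin-like receptor (109 ± 39.596 against 22.7 ± 16.8, 0.0586), and lyz, the lysozyme that defines the cell type (4.79 ± 6.96 against 1.56 ± 1.08, 0.4). The mpx gene, the other defining marker, was not matched by symbol and is not reported. The list's median was -0.68 without 32 °C replicate 8, -0.74 without replicate 2 and -0.57 without both. The part of neutrophil numbers in the differences of single genes was not tested.

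Of the inflammatory calls, that of cxcr1 held in each single leave-out (adjusted p up to 0.048) but not without both 32 °C replicates 2 and 8 (log2 fold change -3.65, adjusted p = 0.079). With limma voom the calls of cxcr1, cxcl8a, LECT2, tnfrsf9a, SERPINB1 and malt1 were lost, while those of ALCAM, sema4ab and f11r.1 held. All of these calls were lost in the fit of only the 10 libraries and in that of the 15 controls. The cxcl8a call was lost without 28 °C replicates 2, 3, 5 or 7 or 32 °C replicates 2 or 3 (adjusted p up to 0.103) and without both (-2.59, 0.129). LECT2 lost its call without 28 °C replicates 1, 2, 3, 5 or 7 or 32 °C replicates 2, 3 or 8 (up to 0.135). For tnfrsf9a this happened without 28 °C replicates 2, 3 or 7 or 32 °C replicates 2, 3 or 8 (up to 0.121). For ALCAM this happened without 28 °C replicates 2, 3 or 7 or 32 °C replicates 2, 3 or 8 (up to 0.128). For SERPINB1 this happened without 28 °C replicates 2, 3, 5 or 7 or 32 °C replicates 3, 8 or 10 (up to 0.12). For sema4ab this happened without 28 °C replicates 2 or 3 (up to 0.0736) and without both 32 °C replicates 2 and 8 (log2 fold change -1.38, adjusted p = 0.082). For f11r.1 this happened without 28 °C replicates 2, 3, 5 or 7 or 32 °C replicates 2, 3 or 10 (up to 0.128) and without both (-3.34, 0.0708). For malt1 this happened without 28 °C replicates 2, 3, 5 or 7 or 32 °C replicates 2, 3 or 8 (up to 0.128) and without both (-0.85, 0.194). Without both 32 °C replicates 2 and 8 the log2 fold changes were -1.75 for LECT2, -1.75 for tnfrsf9a, -1.33 for ALCAM and -6.86 for SERPINB1, none past the threshold (adjusted p = 0.146 to 0.347).

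Of the cytokine genes cxcl8a alone was called by edgeR, while DESeq2 called 9 lower and 1 higher. Of 71 tested cytokines and chemokines 40 lay below 0, with a median of -0.13 (-0.23 without both libraries), and 5 with all 32 °C values below all 28 °C values, as for 1.15% of all genes tested. Both tumour necrosis factor genes were among those 5. The first, tnfb, was at 24.2, 101, 62.8, 26.7 and 54.7 CPM against 24.1, 21.8, 16.98, 22.5 and 12.9 (edgeR adjusted p = 0.0594). The second, tnfa, was at 5.16, 14.4, 11.3, 9.59 and 21.1 against 3.45, 3.65, 0.806, 3.58 and 4.27 (0.0869). ACOD1, which makes the antimicrobial metabolite itaconate in activated macrophages, was at 257, 643, 325, 464 and 381 CPM against 87.3, 121, 255, 51.1 and 227 and did not overlap either (0.0852). Of 23 acute phase and antimicrobial genes 16 lay below 0, with a median of -0.38 (-0.46 without both libraries). At an unadjusted p under 0.05, 4 were higher and 8 lower. Of these 23, LECT2 was called lower and bpifcl, a member of the family of bactericidal and lipid-binding proteins, higher (7.78 ± 3.84 against 25.6 ± 9.25 CPM, log2 fold change 1.72, SE 0.36, edgeR adjusted p = 0.0287). The bpifcl call was lost without 28 °C replicates 3, 5 or 7 or 32 °C replicates 3 or 8 (up to 0.102) and without both 32 °C replicates 2 and 8 (0.185). Of 59 genes of the NF-kB pathway 40 lay below 0, with a median of -0.20 (-0.15 without both libraries) and 0 called by edgeR (6 higher and 12 lower at an unadjusted p under 0.05; DESeq2 called 4 higher and 2 lower, limma voom 0).

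The phagocyte NADPH oxidase transfers electrons from NADPH to oxygen, and its cytosolic subunit gene NCF4 (ENSDARG00000040812) was the member called. NCF4 was at 83.7, 91.9, 118, 76.4 and 105 CPM at 28 °C and 41.9, 41.2, 40.5, 40.9 and 63.5 CPM at 32 °C, where replicate 10 was the highest and the others lay close together (log2 fold change -1.06, SE 0.22, edgeR adjusted p = 0.028). Other subunits did not pass. The catalytic subunit gene cybb was at 621, 386, 490.0, 388 and 579 CPM against 230.0, 244, 326, 211 and 269 (edgeR adjusted p = 0.165). NCF1 averaged 416 ± 162 against 164 ± 85.6 CPM (0.0917) and cyba 342 ± 70.8 against 197 ± 56.3 (0.144). Of 9 tested members 7 lay below 0, with a median of -0.79 (-0.57 without 32 °C replicates 2 and 8). The NCF4 call was lost without 28 °C replicates 2, 3 or 7 or 32 °C replicates 2, 3 or 8 (adjusted p up to 0.0869). It was also lost without both 32 °C replicates 2 and 8 (log2 fold change -0.97, adjusted p = 0.195).

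Some genes of lysosomes and protein turnover fell, while ifi30a, described above, and GM2A, the lysosomal activator of ganglioside breakdown, rose (GM2A log2 fold change 0.82, SE 0.19, edgeR adjusted p = 0.0406). The call of GM2A, a gene singled out after its values were seen, was lost without 28 °C replicates 2, 3, 5 or 7 or 32 °C replicates 2, 3 or 8 (adjusted p up to 0.144) and without both 32 °C replicates 2 and 8 (0.325). The vacuolar proton pump, or V-ATPase, acidifies lysosomes and phagosomes. Of its 24 tested subunit and accessory genes edgeR called 4 lower and 0 higher, beside 38 (0.213%) and 75 (0.42%) of all 17841 genes. DESeq2 called 10 lower and limma voom 3 lower. Below 0 lay 21 of the 24, with 15 lower at an unadjusted p under 0.05, beside 8332 and 1118 of all genes tested. The median log2 fold change was -0.67 (-0.50 without 32 °C replicates 2 and 8). This list was chosen after the values were seen and its counts are a description. ATP6V1C1 was at 61.9, 95.0, 73.8, 72.3 and 46.0 CPM against 32.4, 42.8, 50.5, 32.6 and 30.6 (log2 fold change -0.88, SE 0.19, edgeR adjusted p = 0.0287). For atp6ap1b the values were 147, 263, 201, 141 and 137 against 85.3, 80.5, 108, 68.6 and 87.3 (log2 fold change -1.05, SE 0.23, edgeR adjusted p = 0.0365). ATP6V1H had a log2 fold change of -0.86 and ATP6AP2 of -0.78 (edgeR adjusted p = 0.048 and 0.0488). The groups overlapped in ATP6V1C1 and ATP6V1H and not in atp6ap1b and ATP6AP2. The acid ceramidase gene ASAH1 (ENSDARG00000037091), a lysosomal lipid hydrolase, averaged 38.9 ± 14.6 CPM against 14.99 ± 3.81 (log2 fold change -1.37, SE 0.27, edgeR adjusted p = 0.0176). EHD1, which returns membrane from endosomes to the cell surface, was at 386 ± 140.2 against 172 ± 64.7 (log2 fold change -1.16, SE 0.26, edgeR adjusted p = 0.0406). Legumain, the lysosomal protease of LGMN, averaged 1693 ± 767 against 834 ± 468 CPM and did not pass (edgeR adjusted p = 0.113).

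Of 57 proteasome subunit genes 51 lay below 0, with a median log2 fold change of -0.45, and 31 were lower at an unadjusted p under 0.05, beside 1118 of 17841 over all genes tested. Of them edgeR called 1 and DESeq2 7 lower. This was PSMC6 (ENSDARG00000037038), an ATPase of the 19S cap, at 93.6, 111, 105, 108 and 90.5 CPM at 28 °C and 54.2, 62.0, 85.0, 55.3 and 70.18 CPM at 32 °C without overlap (log2 fold change -0.64, SE 0.14, edgeR adjusted p = 0.0319). The ubiquitin ligase gene SMURF1 (46.8 ± 17.2 against 26.3 ± 3.59 CPM, log2 fold change -0.83) and the ubiquitin-conjugating enzyme gene UBE2K (73.1 ± 9.70 against 51.4 ± 5.49, -0.51) were lower too (edgeR adjusted p = 0.0365 for each). The proteasome median was -0.38 without 32 °C replicate 8, -0.33 without replicate 2 and -0.23 without both. The summed level of the list, 3779 to 5917 CPM at 28 °C, overlapped with 2500.0 to 5428 at 32 °C, where replicate 6 was the highest. Among these lysosomal and turnover genes the calls were lost without 28 °C replicates 2, 3 or 5 or 32 °C replicates 2, 3 or 8 for ATP6V1C1. They were lost without 28 °C replicates 2, 3, 5 or 7 or 32 °C replicates 2, 3 or 8 for atp6ap1b and without 28 °C replicates 1, 2, 3, 5 or 7 or 32 °C replicates 2, 3, 8 or 10 for ATP6V1H. For ATP6AP2 this happened without 28 °C replicates 1, 2, 3, 5 or 7 or 32 °C replicates 2, 3 or 8, and for ASAH1 without 28 °C replicates 3 or 7 or 32 °C replicate 2. It happened without 28 °C replicates 2, 3, 5 or 7 or 32 °C replicates 2, 3 or 8 for EHD1, PSMC6, SMURF1 and UBE2K (adjusted p up to 0.159). None held without both 32 °C replicates 2 and 8, at log2 fold changes of -0.75, -0.95, -0.66, -0.57, -1.30, -0.89 and -0.49 for the first 7 (adjusted p = 0.146 to 0.387).

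Of the 113 called genes 20 were on one of the gene lists and 19 had a clone name or no symbol, and the genes that rose included several of other known functions. The secreted inhibitors of bone morphogenetic proteins encoded by NOG (ENSDARG00000053528) and nog2 (ENSDARG00000043066) rose together. NOG was at 0.977, 0.339, 0.778, 0.567 and 1.67 CPM against 3.09, 12.9, 3.65, 5.43 and 3.28 (log2 fold change 2.71, SE 0.56, edgeR adjusted p = 0.028). For nog2 the values were 1.06, 0.527, 1.123, 1.76 and 1.85 against 3.51, 13.8, 3.41, 9.71 and 3.45 (log2 fold change 2.43, SE 0.51, edgeR adjusted p = 0.0287). Neither overlapped, and 32 °C replicate 3 was the highest in both. STING1, the adaptor that signals the presence of cytosolic DNA, averaged 2.40 ± 1.39 against 8.78 ± 2.65 CPM (log2 fold change 1.86, SE 0.40, edgeR adjusted p = 0.031). It was the 1 member of 58 interferon-stimulated genes that edgeR called (median 0.15, and 0.19 without 32 °C replicates 2 and 8). In that list 14 members were higher and 3 lower at an unadjusted p under 0.05. DESeq2 called 7 higher and 1 lower, limma voom 1 higher, and edgeR 2 higher (mxb and CMPK2) without 32 °C replicate 8. SLC7A9, a cystine and amino acid transporter, averaged 0.881 ± 0.461 against 6.34 ± 3.70 CPM (log2 fold change 2.83, SE 0.60, edgeR adjusted p = 0.0287). The gene sftpba, related to surfactant protein B, was at 19.6 ± 10.7 against 91.6 ± 44.9 (log2 fold change 2.23, SE 0.47, edgeR adjusted p = 0.0287). The nucleosome-binding protein genes hmgn1a and hmgn1b had log2 fold changes of 0.85 and 1.02 (edgeR adjusted p = 0.0406 and 0.031).

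The smallest p-value of the comparison belonged to si:ch211-283g2.5 (ENSDARG00000108953), a gene with a clone name that falls outside the naming rule and was singled out after its values were seen. It was at 57.2, 36.12, 40.6, 64.0 and 37.2 CPM at 28 °C and 128, 292, 247, 223 and 97.6 CPM at 32 °C, without overlap (log2 fold change 2.07, SE 0.26, edgeR adjusted p = 2.56e-04). It kept its call in all single leave-outs (adjusted p up to 0.00386) and without both 32 °C replicates 2 and 8 (log2 fold change 2.18, adjusted p = 6.86e-04), and lost it in the fit of only the 10 libraries. The call of NOG was lost without 28 °C replicates 2, 3 or 5 or 32 °C replicate 3 (adjusted p up to 0.103). The call of nog2 was lost without 28 °C replicates 2, 3, 5 or 7 or 32 °C replicates 3 or 8 (adjusted p up to 0.103). The call of STING1 was lost without 28 °C replicates 3, 5 or 7 or 32 °C replicates 2, 3 or 8 (adjusted p up to 0.114). The call of SLC7A9 was lost without 28 °C replicates 2, 3, 5 or 7 or 32 °C replicates 2, 3 or 8 (adjusted p up to 0.103). The call of sftpba was lost without 28 °C replicates 3, 5 or 7 or 32 °C replicates 2 or 3 (adjusted p up to 0.0995). The call of hmgn1a was lost without 28 °C replicates 1, 2, 3, 5 or 7 or 32 °C replicates 3 or 8 (adjusted p up to 0.151). The call of hmgn1b was lost without 28 °C replicates 2, 3, 5 or 7 or 32 °C replicates 3 or 8 (adjusted p up to 0.135). None of these 7 calls held without both 32 °C replicates 2 and 8. The 32 °C mean of uox, the liver enzyme urate oxidase, rested on replicate 8: the gene was at 0.772, 0.152, 0.190, 27.7 and 0.878 CPM in the 32 °C libraries and at most 0.195 at 28 °C (edgeR adjusted p = 0.0488, and 0.399 without replicate 8). Its call was also lost without 28 °C replicates 1, 2, 3, 5 or 7 or 32 °C replicates 2 or 3.

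Some groups of genes lay to one side of 0 in nearly all members without a gene passing the test. Of 82 cell cycle genes 80 lay above 0, with a median log2 fold change of 0.63 and 0 called (edgeR, 15 higher and 0 lower at an unadjusted p under 0.05), while DESeq2 called 1 higher and limma voom 0. The replication clamp gene PCNA was at 102, 101, 84.7, 77.2 and 58.1 CPM against 88.1, 174, 178, 162 and 120.2 (edgeR adjusted p = 0.132). The median was 0.56 without 32 °C replicate 8 and 0.58 without replicates 2 and 8. Of 48 genes of the unfolded protein response 45 lay below 0, with a median of -0.32 and 0 called (0 higher and 16 lower at an unadjusted p under 0.05; DESeq2 and limma voom also called 0). The chaperone gene HYOU1 was at 191, 267, 149, 147 and 154 CPM against 52.9, 79.7, 186, 38.3 and 123, with replicate 6 among the 28 °C values (edgeR adjusted p = 0.209). Without both libraries that median was -0.18. Members of one list move together between libraries, so such counts carry no test.

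Further lists had no edgeR call, and some of these also lay mostly to one side of 0. Of cytosolic ribosomal protein genes 74 of 82 lay above 0, as did 32 of 42 clock genes, while 84 of 104 oxidative phosphorylation genes lay below. Thrombocyte markers had a median of -0.29 with 17 of 20 below 0, and of -0.51 without 32 °C replicates 2 and 8. The smallest p was that of THBS1, thrombospondin 1, at 212, 485, 299.6, 169 and 403 CPM against 56.5, 84.7, 147, 9.94 and 88.2 (edgeR adjusted p = 0.0701). Heat shock and cold-inducible genes had a median of -0.22 over 57 members, genes of DNA methylation 0.12 over 21 and clock genes 0.33 over 42. The median was 0.01 for 58 erythroid genes, 0.15 for 82 cytosolic ribosomal protein genes and -0.19 for 104 nuclear oxidative phosphorylation genes. Without 32 °C replicates 2 and 8 these medians were -0.14, 0.09, 0.18, -0.07, 0.12 and -0.03 in the same order, and 45 of the 104 oxidative phosphorylation genes then lay above 0 against 20 with all libraries. In each of these 7 lists 0 members were called by edgeR or limma voom, while DESeq2 called 1 thrombocyte marker lower, 1 heat shock or cold-inducible gene in each direction, 2 DNA methylation genes higher, 1 erythroid gene higher and 2 oxidative phosphorylation genes higher. The methyltransferase gene dnmt3ba was at 9.50, 12.3, 11.62, 9.53 and 8.42 CPM against 14.4, 16.7, 14.2, 15.1 and 12.6, which did not overlap, at an edgeR adjusted p of 0.0927. At an unadjusted p under 0.05, 3 heat shock and cold-inducible genes were higher and 13 lower, against 0 and 4 for thrombocyte markers. These counts were 3 and 0 for DNA methylation genes, 6 and 0 for clock genes and 4 and 2 for erythroid genes. They were 0 and 0 for ribosomal protein genes and 2 and 12 for oxidative phosphorylation genes.

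**Figure D4:**
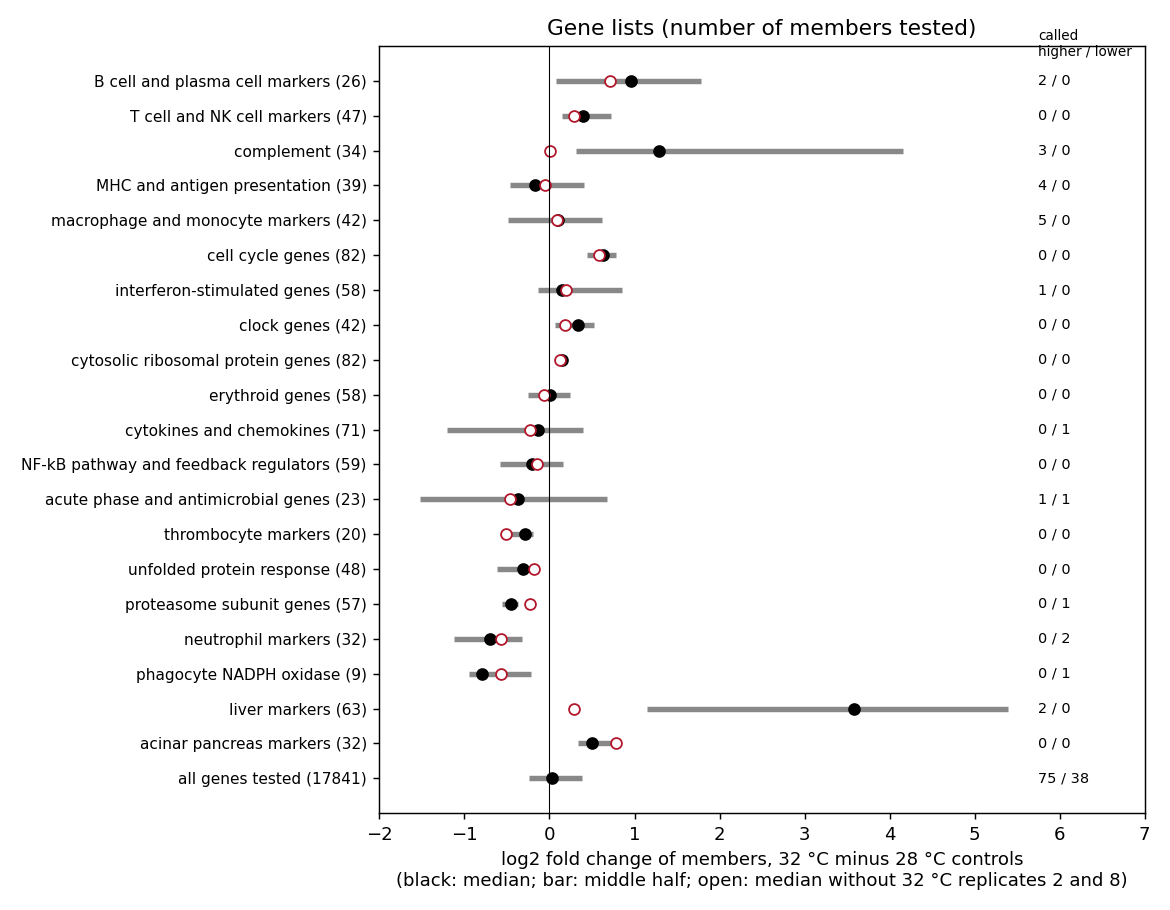
Median log2 fold change (32 °C minus 28 °C controls, x axis) of the members of 20 gene lists and of all genes tested (black points), the interquartile range of the members (grey bars), and the median without 32 °C replicates 2 and 8 (open points; not drawn for all genes); the number of members tested is in brackets and the counts called higher and lower stand at the right. Liver markers fall from 3.59 to 0.29 and complement from 1.29 to 0.01 without the 2 libraries, while neutrophil markers stay below 0 and B cell markers above it.

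Transcripts of neighbouring organs stood beside these results. The median log2 fold change of 63 liver markers was 3.59, 0.55 without 32 °C replicate 8 and 0.29 without replicates 2 and 8. With all libraries edgeR called 2 of them higher and 0 lower, and DESeq2 23 higher and 1 lower. The defining liver genes fabp10a and apoa2 had 10694 and 16290 counts in replicate 8 and at most 288 and 115 in any of the other 9 libraries. Endocrine pancreas markers had a median of 3.11 over 12 members (3.33 without both libraries). Of them 9 lay above 0 and 7 were higher at an unadjusted p under 0.05, with 0 called by edgeR and 2 called higher by DESeq2. The insulin gene ins was at 0.0594, 169, 0.474, 34.03 and 261 CPM at 32 °C and at most 0.301 at 28 °C (edgeR adjusted p = 0.0794). Acinar markers had a median of 0.50 over 32 (0.78 without both libraries). Of them 29 lay above 0, with 0 at an unadjusted p under 0.05 in either direction. Their sum was highest in 28 °C replicate 7 and was 501 to 8025 CPM in the others of that group. At 32 °C it was 979.6 CPM in replicate 2 and 14595 to 27560 in the others. F10, coagulation factor X, was called higher (55.3 ± 19.1 against 139.6 ± 56.6 CPM, log2 fold change 1.33, SE 0.32, edgeR adjusted p = 0.0473). It lost its call without 28 °C replicates 2, 3, 5 or 7 or 32 °C replicates 2, 3 or 8 (up to 0.139) and without both 32 °C replicates 2 and 8 (0.221). Its highest value was in replicate 3 and not in replicate 8. The oocyte gene GDF9 had 0 to 6 counts in all 10 libraries. The other defining ovary marker, zp3b, had 23 to 435 counts, the highest in 32 °C replicate 3.

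The controls incubated at 24 °C give a further level for the same genes. Their mean lay between the 28 and 32 °C means for 74 of the 75 genes called higher and 30 of the 38 called lower. For those genes the means did not follow the order of the temperatures. The 24 °C mean lay beyond the 32 °C mean for 1 and 7 genes, and beyond the 28 °C mean for 0 and 1. These genes were called for a gap between 28 and 32 °C, which favours a mean between them. Means for cd74a were 490.4 ± 255 CPM at 24 °C, 255 ± 80.9 at 28 °C and 1314 ± 874 at 32 °C (SD, n = 5 each). For cd79a they were 8.66 ± 2.29 CPM at 24 °C, 3.37 ± 1.92 at 28 °C and 16.9 ± 6.30 at 32 °C, and for c1qb 188 ± 47.7 CPM at 24 °C, 124 ± 46.5 at 28 °C and 309.6 ± 108 at 32 °C. For cxcl8a they were 24.95 ± 12.1 CPM at 24 °C, 132 ± 78.1 at 28 °C and 24.04 ± 5.95 at 32 °C. For NCF4 they were 40.7 ± 11.46 CPM at 24 °C, 94.9 ± 16.5 at 28 °C and 45.6 ± 10.03 at 32 °C. Differences from the 24 °C group share libraries with the comparison described here and are not an independent repeat of it.

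The same contrast in fish given LPS shares no library with the controls. Between LPS fish incubated at 32 °C and at 28 °C, 0 of 17841 genes (0%) were called by edgeR, with 732 at an unadjusted p under 0.05. Of the 113 genes called in the controls, 38 (33.6%) differed in the same direction in LPS fish, beside 48.3% of all genes tested. The 75 genes higher in 32 °C controls had a median log2 fold change of -0.25 in LPS fish against 1.704 in controls, and the 38 lower ones 0.05 against -1.16. The invariant chain gene cd74a averaged 629 ± 144 CPM in 28 °C LPS fish and 369 ± 74.8 in 32 °C LPS fish, and the temperature difference in controls exceeded that in LPS fish by 3.13 on the log2 scale (SE 0.52, edgeR adjusted p = 0.0154). For cd79a the levels were 11.98 ± 4.72 and 5.64 ± 2.96 CPM, with a difference between the contrasts of 3.40, SE 0.60, edgeR adjusted p = 0.0159. For mhc2daa they were 313 ± 140.2 and 211 ± 72.4 (2.86, SE 0.58, edgeR adjusted p = 0.0388). In the lower set, tnfrsf9a averaged 21.1 ± 3.50 and 47.7 ± 28.1 CPM in LPS fish (-3.10, SE 0.58, edgeR adjusted p = 0.0211), and ALCAM 39.9 ± 5.13 and 96.3 ± 32.1 (-2.71, SE 0.44, edgeR adjusted p = 0.0154). The difference for cxcl8a did not pass (-3.33, SE 0.71, edgeR adjusted p = 0.054). All these genes were chosen for their difference in the same controls. That choice favours a gap between the contrasts, so the gaps are given as a description.

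**Figure D5:**
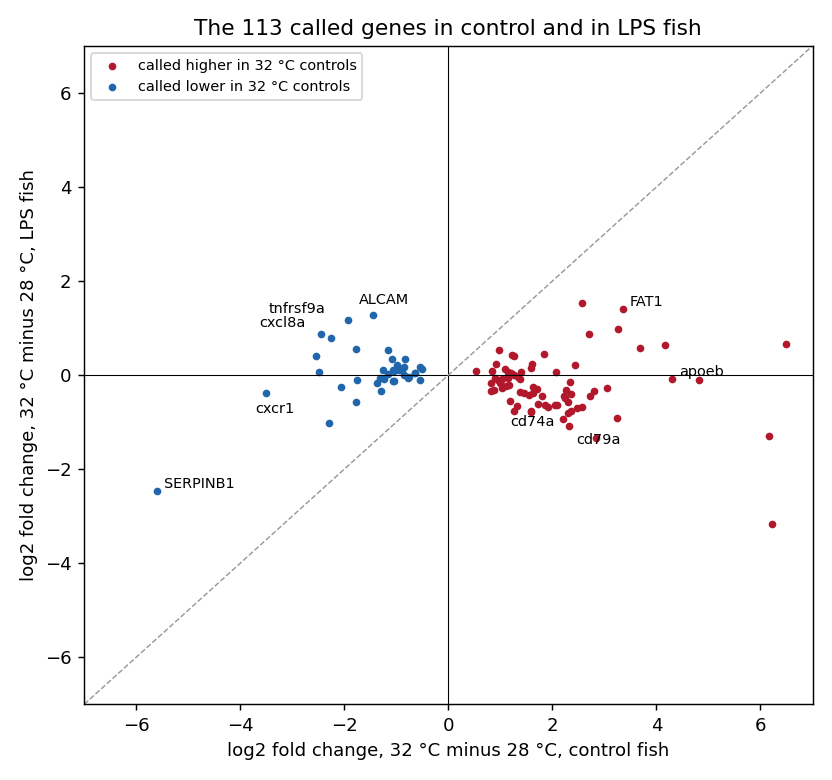
Log2 fold change between 32 °C and 28 °C incubation in LPS fish (y axis) against that in control fish (x axis) for the 113 genes called in controls; red points are genes higher and blue points genes lower in 32 °C controls, and the dashed line marks equal values. On the y axis the red points have a median of -0.25 and the blue points of 0.05, and 38 of the 113 lie on the same side of 0 on both axes.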

How the data were processed

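Per the labels, 50 ng of spleen RNA per library was enriched for poly(A) tails and made into strand-specific libraries. The submitters' processing notes name the GRCz11 build and the tools STAR, cutadapt 1.12, DESeq2 1.11.1, FastQC 0.11.5 and bcl2fastq. Which program counted the reads, with which annotation and strand setting, is not given in the sources used here. Reads of overlapping, antisense or duplicated genes may therefore be split. The authors deposited raw whole-number counts for 31901 Ensembl genes, of which 29178 could be given a symbol. Sequences and coordinates were not used here.

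R 4.3.3 and edgeR 4.0.16 were used. After filterByExpr 17841 genes remained, TMM scaled the libraries, and a robust quasi-likelihood model gave each of 6 groups (30 libraries, 24 residual degrees of freedom) its own mean. The 32 °C minus 28 °C control contrast was tested by the two-sided F test, adjusted by Benjamini-Hochberg over all genes tested, at 0.05. Each SE is the log2 fold change over the square root of F. CPM of genes use TMM-scaled library sizes, while summed CPM of lists and markers use total counts. The naming rule took called genes that had a proper symbol and 5 CPM or more in the higher group (15 largest and 15 smallest log2 fold changes, 10 smallest p) and the 4 smallest p of each list. Other called genes, named beside a count or related gene, were chosen after their values were seen. The members, the 33 gene lists and the tests were chosen with earlier results of these data known. The code was tested on simulated data. Alternatives were DESeq2 1.42.0, limma 3.58.1, other scalings, filters and sample sets, each library left out in turn, and a replicate block. Limma voom stands throughout for voom with quality weights, which gives deviating libraries less weight.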

Additional observations from a re-analysis of the deposited data

Results flagged for a closer look

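Among 136 sets of 5 libraries examined, 14 held a library whose gap to its nearest neighbour, as a share of the whole range, passed Dixon's critical value of 0.71; chance flags about 1 in 20 sets. In 32 °C replicate 8 the summed liver markers stood at 11033 CPM against 838 to 1290 (gap share 0.956) and uox at 27.7 against 0.152 to 0.878 CPM (0.974). In 32 °C replicate 2 the number of genes detected (0.934), the total counts (0.786), the summed skeletal muscle markers (0.713, 47.5 against 11.9 to 22.1 CPM) and SERPINB1 (0.823) stood apart. NOG was far above its group in 32 °C replicate 3 (0.762, 12.9 against 3.09 to 5.43 CPM), and sema4ab far below in replicate 6 (0.723, 18.9 against 26.6 to 29.6 CPM). At 28 °C the sets concerned were LECT2 in replicate 7 (0.716), FNIP2 in replicate 2 (0.753, 71.0 against 20.8 to 33.19 CPM), GRIA3 in replicate 1 (0.726, 2.77 against 0.404 to 1.05 CPM), the summed MHC and antigen presentation genes in replicate 2 (0.718, 11465 against 5823 to 7412 CPM), the summed acinar pancreas markers in replicate 7 (0.805, 39125 against 501 to 8025 CPM) and the summed NADPH oxidase genes in replicate 5 (0.726, 1499.7 against 1853 to 1986 CPM).

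Of 33 genes examined, 9 had a difference between 32 °C and 28 °C incubation that itself differed between control and LPS fish by the interaction term of the edgeR fit. These 33 were picked from the genes called in the same control libraries. That choice favours such a gap, so nothing is read from the count. The difference in controls minus that in LPS fish, on the log2 scale, was 4.39 (SE 0.89, edgeR adjusted p = 0.0396) for apoeb, 4.16 (SE 0.83, edgeR adjusted p = 0.034) for SLC7A9, 3.40 (SE 0.60, edgeR adjusted p = 0.0159) for cd79a, 3.13 (SE 0.52, edgeR adjusted p = 0.0154) for cd74a, 3.12 (SE 0.64, edgeR adjusted p = 0.0396) for ighm, 2.86 (SE 0.58, edgeR adjusted p = 0.0388) for mhc2daa and 2.70 (SE 0.49, edgeR adjusted p = 0.0159) for cd74b. It was -3.10 (SE 0.58, edgeR adjusted p = 0.0211) for tnfrsf9a and -2.71 (SE 0.44, edgeR adjusted p = 0.0154) for ALCAM.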

How the results depend on the processing

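Over 23 alternatives the count of called genes (113, 75 higher and 38 lower) ranged widely. It was 47 (32 higher, 15 lower) with no filter on low counts, 625 (356 and 269) with DESeq2, 2 (2 and 0) in a fit of the 15 controls, 2 (2 and 0) without both 32 °C replicates 2 and 8, 2 (2 and 0) when 24 °C replicate 4 was also left out, and 0 in a fit of the 10 libraries alone, where edgeR found 2114 genes at an unadjusted p under 0.05. Leaving out each library in turn gave 4 to 506 called genes, 3 to 209 higher and 1 to 297 lower. Other scalings, a stricter filter, limma voom, a non-robust fit and the fit without 24 °C replicate 4 gave 81 to 125. Only 62 of the 81 genes called by limma voom were among the 113, and 96 of the 125 without 24 °C replicate 4. The rest of these settings shared 86 to 113 genes with the main list. With the replicate number as a replicate block the count was 419 (162 and 257, 68 of them among the 113). Libraries that shared a number correlated at 0.063 and 0.170 in their deviations, against -0.313 to 0.244 for 23 other pairs. With 2 such pairs it cannot be told whether the numbers pair the fish. The causes of these changes in count were not tested.

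Of 5024 values of 220 followed genes under the alternatives, 3540 kept direction and call, 1369 lost a call, 105 gained one and 10 changed sign. No called gene changed sign, which carries no weight because the calls came from the same libraries. The sign changes were amy2al1 (ENSDARG00000030357) (main 1.71; -0.20 with limma voom, -0.60 without 32 °C replicate 8 among single leave-outs of up to 2.02, -1.53 without 32 °C replicates 2 and 8, with or without 24 °C replicate 4), apoa4b.1 (ENSDARG00000040298) (main 5.00; -0.14 in both of the latter fits), myha (ENSDARG00000095930) (main 1.05; -0.13 in both), MT-ND5 (ENSDARG00000063921) (main -0.33; 0.0747 with the replicate block) and MT-ATP6 (ENSDARG00000063911) (main -0.35; 0.0532 without 28 °C replicate 7 among single leave-outs from -0.55). Of 759 list medians 741 moved by less than the spread between replicates. Among the 18 others, the complement median was 0.45 with the 10 libraries alone, the liver median 0.55 without 32 °C replicate 8, the neutrophil median -1.05 and the proteasome median -0.78 with the replicate block. Depth limits genes under about 1 CPM, where a library holds few counts.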

Other observations

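Collagen and matrix genes differed in direction from one another between the temperatures without passing the test. The fibrillar collagen gene col1a1a was at 67.1, 35.8, 76.5, 27.5, 96.3 CPM in the 28 °C libraries and 117, 219.7, 98.6, 298, 92.4 at 32 °C (log2 fold change 1.44, edgeR adjusted p = 0.127), and its binding protein gene SPARC averaged 94.3 ± 31.7 against 212 ± 141 CPM (adjusted p = 0.146, edgeR). COL5A1 lay the other way, at 127 ± 41.9 against 59.3 ± 26.6 CPM (edgeR adjusted p = 0.113). In both col1a1a and SPARC the highest library was 32 °C replicate 8. Toll-like receptor genes that lay above 0 without passing included tlr21, a receptor for bacterial DNA in fish (2.18 ± 1.65 against 9.39 ± 4.91 CPM, edgeR adjusted p = 0.058), and tlr1 (11.05 ± 4.25 against 22.7 ± 6.31, 0.0644). The interferon-induced genes mxb (0.596 ± 0.609 against 10.4 ± 10.4 CPM) and CMPK2 (4.92 ± 2.99 against 21.9 ± 16.0) were lowest among the 32 °C libraries in replicate 8 (edgeR adjusted p = 0.0558 and 0.0644). Without that library both were called higher (log2 fold change 4.45 and 2.43, edgeR adjusted p = 0.0418 for each). Neither was called without both 32 °C replicates 2 and 8 (edgeR adjusted p = 0.082 and 0.185).

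In the remaining lists edgeR called 0 genes. The median log2 fold changes were 0.03 for 22 glucocorticoid-responsive genes, -0.29 for 31 genes of iron storage, transport and recycling, -0.31 for 34 immediate early transcription factors, -0.21 for 13 mitochondrially encoded genes, 0.63 for 9 ovary markers, 0.16 for 14 testis and sperm markers, 0.31 for 19 intestine markers, 0.81 for 12 skeletal muscle markers and 0.30 for 39 stromal, endothelial and adipose markers. Without 32 °C replicates 2 and 8 the medians were -0.01, -0.27, -0.22, -0.13, 0.45, -0.04, -0.25, -0.05 and 0.10 in the same order, so that 4 of them, those of the glucocorticoid-responsive genes and the testis, intestine and skeletal muscle markers, changed sign. Without replicate 2 alone the skeletal muscle median was 0.20. At an unadjusted p under 0.05 these 9 lists held, in the same order, 0, 3, 0, 0, 0, 1, 2, 3 and 5 higher and 2, 4, 8, 1, 0, 1, 2, 0 and 1 lower members. DESeq2 called 1 iron gene higher, 1 intestine marker higher and 1 stromal, endothelial or adipose marker in each direction, and limma voom called 0.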
